A study of Mus musculus with 28 samples.

Results

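In mouse small-intestinal organoids, 104 genes were expressed above the untreated level with BMP2 and below it with BMP4. They were chosen from 29413 genes by their measured values: a mean of at least 50 normalized counts over 20 libraries, log2((group mean + 1)/(untreated mean + 1)) of at least 1 for BMP2 and at most -1 for BMP4, every BMP2 library above every untreated one and every BMP4 library below. Of the 11856 genes at that mean, 2430 met the BMP2 part of the rule and 1959 the BMP4 part, so the 104 genes are 4.28% of the former and 5.31% of the latter. The levels with BMP2 and BMP4 are therefore given as a description, without a test. The fold and order conditions did not use the levels with BMP3, BMP5, BMP7 and Tgfb. The BMP3, BMP5 and BMP7 libraries did enter the mean over 20 libraries, so genes high with these ligands reached it more readily. The Tgfb libraries entered no part of the rule.

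The organoids were wild-type C57BL/6 epithelial cultures, which grow from intestinal crypts in a gel matrix and hold crypt and villus cell types without mesenchyme. A first experiment compared 4 untreated samples (noBMP) with 4 given recombinant BMP2 and with 3 each given BMP3, BMP4, BMP5 or BMP7. A second, separately scaled experiment compared 3 untreated organoid samples with 3 given recombinant Tgfb. Every ligand was added at 500 ng/ml for 24 h, and the controls received none. Duodenal mesenchymal cells of PdgfraH2BeGFP mice, which carry a nuclear green reporter at the Pdgfra gene, were measured once fresh and once after immortalisation with a viral oncogene and sorting on the reporter. Per the series title, the study concerns how such ligands bring enterocytes of the villus tip to maturity. The labels do not say whether replicates came from separate cultures or animals, so the p-values measure only the spread between these samples, which may be technical. RNA came from whole cultures, in which fewer cells of a type and less RNA per cell cannot be told apart.

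BMPs and Tgfb are secreted dimers that bring type I and type II receptor kinases together. In general BMP receptors phosphorylate Smad1, Smad5 and Smad8, and Tgfb receptors phosphorylate Smad2 and Smad3, with Smad4 as the common partner. In the intestine BMP ligands made by the villus mesenchyme oppose crypt proliferation and promote differentiation, and Tgfb restrains epithelial growth while inducing matrix and cytoskeletal genes.

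By the levels of Id1 and Smad7, the ligands other than BMP3 had acted on the cultures. Id1, a direct BMP target, had 132.75 ± 27.4 normalized counts without ligand, 2810 ± 115 with BMP2 and 2677 ± 782 with BMP4 (SD, n = 4, 4 and 3). Smad7, the inhibitory Smad induced by both branches, had 128.5 ± 28.4, 3252.5 ± 108 and 1637 ± 429 in the same groups. Id1 and Smad7 had 843 ± 206 and 634 ± 176 with BMP5, and 1870 ± 429 and 975 ± 340 with BMP7 (SD, n = 3). With BMP3 the 2 genes had 129 ± 6.25 and 121 ± 36.2 (SD, n = 3), near the untreated means. In the Tgfb experiment Id1 went from 8.51 ± 1.07 to 63.6 ± 14.9 TPM and Smad7 from 1.54 ± 0.236 to 27.8 ± 5.67 TPM (SD, n = 3). The epithelial genes Epcam and Cdh1 were high throughout and differed between groups, with means of 20825 and 22875 normalized counts without ligand, 85375 and 104250 with BMP2, 35800 and 27333 with BMP4, 36933 and 44367 with BMP5 and 40733 and 46600 with BMP7. The mesenchymal marker list (12 of 14 genes found) summed to 141 to 230 normalized counts without ligand, 80.6 to 120 with BMP2 and 35.4 to 51.4 with BMP4. The same sum was 155 to 220 with BMP5 and 101 to 174 with BMP7. In this mesenchymal list Col3a1 was at 0 in every untreated, BMP5 and BMP7 library, and Col1a1 had means of 5.93, 10.4 and 12.8 there. Vim had means of 149, 152 and 65.8 in these groups and 34.5 with BMP2. Pdgfra had means of 0.667 without ligand and 22.95 with BMP2, so genes of the list moved both ways. The immune cell list (10 of 10 genes found) summed to 266 to 319 without ligand, 874 to 1338 with BMP2, 312 to 437 with BMP4, 377 to 505 with BMP5 and 415 to 568 with BMP7. In that list the pan-leukocyte gene Ptprc had at most 23.8 in any of these libraries. The macrophage receptor gene Csf1r had means of 4.32 in the untreated and 5.88 in the BMP4 libraries, next to 35.7 (BMP2), 20.97 (BMP5) and 17.8 (BMP7). Lyz2 had means of 37.3 without ligand and 19.3 with BMP2. Ptprc, Csf1r and Lyz2 hold a small part of the BMP2 sum, and the genes that make up the rest are not named here. The endothelial and neural list (7 of 8 genes found) summed to 595 to 800 without ligand, 872 to 1078 with BMP2 and 888 to 1050 with BMP4. Its sums were 617 to 815 with BMP5 and 611 to 745 with BMP7. Pecam1 of this list had a mean of 671.5 without ligand, and 0.454 TPM in the controls of the Tgfb experiment. Recovered depth was 21356259 to 24782286 reads per sample in the BMP table. As scaled by the authors, untreated libraries summed to 19885612 ± 702378 normalized counts (SD, n = 4), BMP2 libraries to 27350549 ± 1181883 (SD, n = 4) and BMP4 libraries to 26232395 ± 706629 (SD, n = 3). With totals made equal across samples, the median of all genes shifted by -0.45 (BMP2) and -0.39 (BMP4) on the log2 scale, and the rule gave 111 genes, of which 73 were among the 104.

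With BMP5, 83 of the 104 genes rose, 1 fell and 20 did not pass the test, at a background of 16.5% of all tested genes higher and 9.87% lower. With BMP7, 78 rose, 1 fell and 25 did not pass, at a background of 19.2% higher and 13.2% lower. With Tgfb, 83 of the 94 genes that could be tested rose, 0 fell and 11 did not pass, at a background of 27.4% higher and 29.3% lower. Each call is a limma test with Benjamini-Hochberg adjustment over all tested genes and a threshold of 0.05. The fits did not pair samples by replicate number. With that number as a block, 0 calls were lost, and 11 were gained with BMP5 and 10 with BMP7. On the log2(value + 1) scale the median change was 1.05 with BMP5, 0.94 with BMP7 and 1.37 with Tgfb, where the medians over all tested genes were -0.03, -0.05 and -0.04. The added 1 weighs more on low TPM values than on counts, so changes with Tgfb and with the BMPs are not comparable in size. The genes that rose with these 3 ligands thus moved on the side of BMP2. The BMP5 and BMP7 comparisons use the same 4 untreated samples as the rule, and these shared controls enter both. The BMP5 and BMP7 libraries also count in the mean of at least 50 that the rule required. Fam89a, counted among the 83 and the 78, reached that mean only through them. The Tgfb comparison has controls of its own. Both BMP5 and Tgfb raised 74 of the 94 genes (78.7%), where 16.9% of all genes tested in both rose in both, and both BMP7 and Tgfb raised 68 (72.3%, against 19.4%). Of the other genes up with BMP2, 71.3% and 78.8% rose in both.

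**Figure D1:**
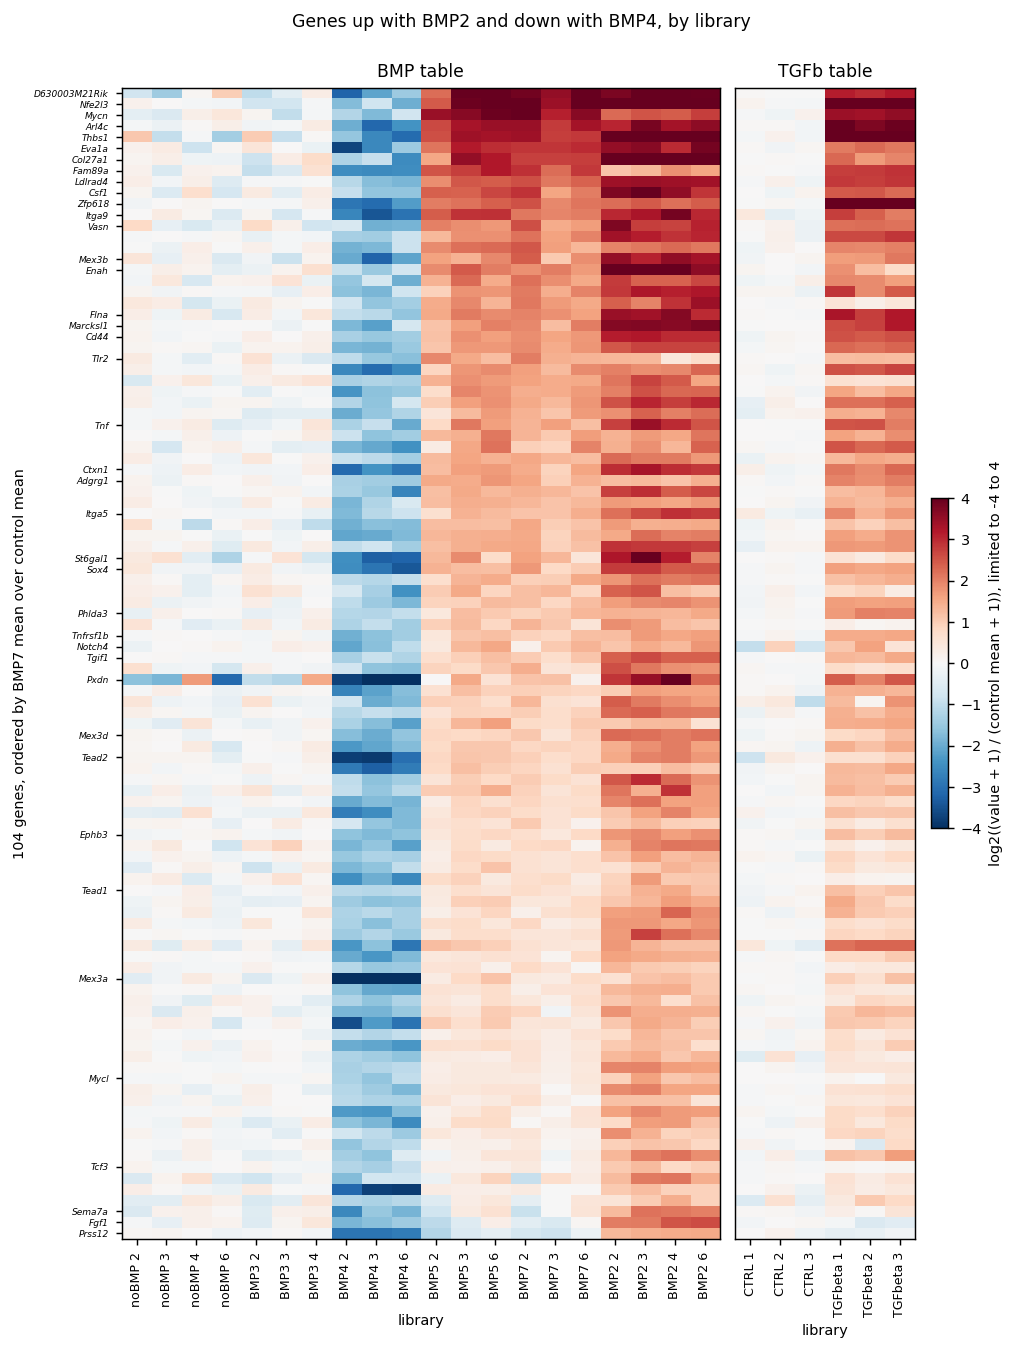
Level of the 104 genes in every library as log2((value + 1)/(control mean + 1)), with the 20 libraries of the BMP table on the left (normalized counts, against the noBMP mean) and the 6 of the Tgfb experiment on the right (TPM, against the CTRL mean). Rows are genes ordered by the BMP7 mean over the control mean, and those described one by one in the text are labelled. The BMP4 columns are below and the BMP2 columns above the controls by the rule, and most BMP5, BMP7 and TGFbeta columns lie above them.

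The same behaviour was found in genes that went up with BMP2 without going down with BMP4. Of the 2326 other genes up with BMP2, 72.5% rose with BMP5, 80.8% with BMP7 and 91.2% of those tested with Tgfb. Among the 104 genes the shares were 79.8%, 75% and 88.3%. The 1855 other genes down with BMP4 rose with these ligands in 4.37%, 3.67% and 8.57% of cases and fell in 18.8%, 26.7% and 66.7%. The 251 genes of the mirror pattern, up with BMP4 and down with BMP2, rose in 0.398%, 0% and 0.823% of cases and fell in 63.3%, 64.5% and 87.2%. The differences between these shares were not tested.

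**Figure D2:**
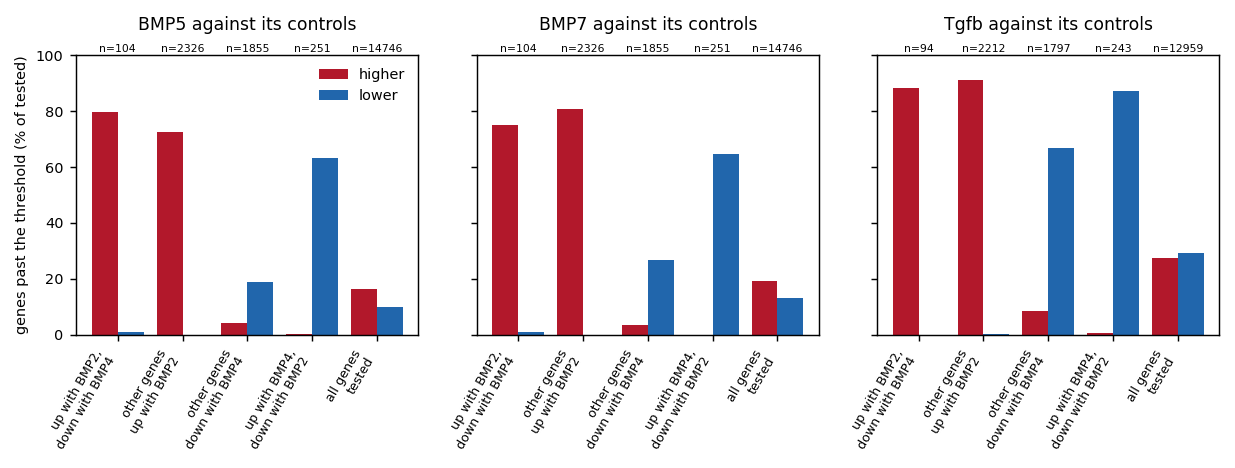
Share of genes (% of those tested, y axis) past the limma threshold against the untreated controls with BMP5, BMP7 or Tgfb, for the 104 genes, 3 other sets and all tested genes (x axis); red bars are genes that rose and blue bars genes that fell, and n is the number tested. The 104 genes and the other genes up with BMP2 have red bars of 72.5% or more in every panel, and the set up with BMP4 and down with BMP2 has blue bars of 63.3% or more.

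The BMP5 and BMP7 means both lay between the untreated and the BMP2 mean for 94 genes (90.4%), compared with 97.7% of the other genes up with BMP2. The median log2 ratio to the BMP2 level was -0.86 for BMP5 and -0.91 for BMP7, and -1.11 and -1.03 in those other genes. Both sets were chosen for a high BMP2 level, so these values are a description. Every BMP5 library was above every untreated one for 89 genes, where 20.9% of all genes at a mean of at least 50 had that order. The corresponding count with BMP7 was 78, against 23.8%. Every Tgfb library was above every control library for 85 of the 94 genes tested, where 31.1% of all tested genes had that order. Between BMP7 and BMP5 no gene of the set passed the test (limma, 0 of 104, 1 at an unadjusted p under 0.05, 0 by edgeR and 0 by DESeq2 on recovered reads; background 0.0136%, being 0.00678% higher and 0.00678% lower). The fitted difference was within 0.5 on the log2 scale for 102 genes, with a median SE of 0.24. The gene with the unadjusted p under 0.05 was Itga9, with a BMP7 minus BMP5 difference of -0.71 (SE 0.28) and an adjusted p of 1. With BMP3, an atypical member of the family, no gene of the set passed the test (limma, 0 of 104, 1 at an unadjusted p under 0.05, 0 by edgeR and 0 by DESeq2; background 0%). The median change with BMP3 was 0.03.

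Secreted and matrix proteins were encoded by 8 of the genes. Thbs1 (ENSMUSG00000040152) encodes thrombospondin-1, a matrix glycoprotein that can activate latent Tgfb. Its normalized counts were 1620, 390, 742 and 294 without ligand, 14400, 14400, 17900 and 14000 with BMP2 and 258, 127 and 89.8 with BMP4. They were 4520, 8040 and 7730 with BMP5 and 8030, 5200 and 5390 with BMP7. The untreated libraries spread widely, yet none reached the lowest BMP5 or BMP7 library. The rise was 3.42 (SE 0.49) on the log2 scale with BMP5 (adjusted p = 4.57e-05) and 3.32 (SE 0.49) with BMP7 (adjusted p = 4.48e-05). In the Tgfb experiment Thbs1 went from 1.97, 2.48 and 1.88 TPM in the controls to 157, 130.5 and 150.0 TPM. The change of 5.56 (SE 0.11, adjusted p = 1.71e-06) was the largest of the 94 genes tested on the log2(TPM + 1) scale. By plain means D630003M21Rik rose 129-fold from 0.0637 TPM, a larger ratio than that of Thbs1.

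Col27a1 (ENSMUSG00000045672), a fibrillar collagen gene, had the largest BMP2 level relative to the controls. Its counts were 19.5, 21.6, 16 and 15.7 without ligand and 618, 867, 914 and 713 with BMP2, a 42.7-fold higher mean. With BMP4 they were 7.11, 9.13 and 2.39, 2.93-fold lower. The BMP5 libraries had 55.6, 217 and 175 and the BMP7 libraries 126, 126 and 129, all above the controls and all below BMP2. The log2 rises were 2.77 (SE 0.43) with BMP5, 2.75 (SE 0.43) with BMP7 and 1.98 (SE 0.21) with Tgfb (adjusted p = 9.88e-05, 7.47e-05 and 0.000368).

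Pxdn (ENSMUSG00000020674) encodes peroxidasin, which crosslinks collagen IV of basement membranes. Untreated libraries held 13.3, 11.6, 145 and 4.13 normalized counts, so replicate 4 stood far above the other 3. The same replicate number was highest with BMP2, at 1580 beside 320, 500 and 216, and the BMP4 libraries had 2.37, 0 and 1.2. The BMP2 mean was at least 186-fold above BMP4, counted against a floor of 3 reads per library, and at least 98.0-fold without BMP2 replicate 4. BMP5 libraries had 44, 125 and 65.7 and BMP7 libraries 98, 99.3 and 49.1, which overlapped the untreated range, and neither comparison passed the test (log2 1.92 (SE 0.91) and 2.05 (SE 0.91), adjusted p = 0.135 and 0.0945). Without untreated replicate 4 both passed (2.89 and 3.02, adjusted p = 0.00932 and 0.00560). With the replicate number as a block they passed as well (2.67 and 2.80, adjusted p = 0.000353 and 0.000187). With Tgfb, Pxdn rose from 0.917, 0.882 and 0.753 TPM to 8.86, 6.29 and 9.397 TPM (log2 2.30 (SE 0.16), adjusted p = 7.31e-05).

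Among secreted signals, the macrophage growth factor Csf1 had 56.8, 35.7, 85.2 and 33 normalized counts without ligand, 708, 847, 623 and 389 with BMP2 and 27.3, 17.1 and 16.8 with BMP4. It had 279, 277 and 338 with BMP5 and 399, 161 and 223 with BMP7, without overlap with the controls. The log2 rises were 2.58 (SE 0.35), 2.29 (SE 0.35) and, with Tgfb, 2.40 (SE 0.15) (adjusted p = 2.45e-05, 5.87e-05 and 4.14e-05). By plain means they were 5.66-fold, 4.95-fold and 16.7-fold, the last from 0.375 TPM in the controls. The inflammatory cytokine gene Tnf was 7.88-fold above the control mean with BMP2 and 2.56-fold below it with BMP4, and rose by 1.55 (SE 0.32) with BMP5, 1.43 (SE 0.32) with BMP7 and 2.37 (SE 0.15) with Tgfb (adjusted p = 0.00124, 0.00191 and 5.17e-05). The summed immune cell markers were also higher with BMP2, BMP5 and BMP7, though Lyz2 among them was lower, and their part in these levels was not tested.

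A pair of secreted products left this order. Prss12 (ENSMUSG00000027978), a secreted serine protease known as neurotrypsin, was the 1 gene of the set that fell with BMP5 and the 1 that fell with BMP7. Its counts were 244, 250, 234 and 202 without ligand and 570, 620, 655 and 673 with BMP2, and only 29.6, 29.7 and 32.3 with BMP4. The BMP5 libraries held 102, 156 and 182 and the BMP7 libraries 143, 131 and 196, in both cases all below the controls and above BMP4. The fall was -0.70 (SE 0.17) with BMP5 (adjusted p = 0.00484) and -0.58 (SE 0.17) with BMP7 (adjusted p = 0.0126). The BMP7 call was lost without BMP7 replicate 2 (adjusted p = 0.0583) or replicate 3 (0.0668). With Tgfb the TPM were 5.86, 6.28 and 7.07, next to 7.97, 8.903 and 6.78 in the controls, and the change of -0.26 (SE 0.12) did not pass (adjusted p = 0.107; 0.0499 without control replicate 3). Fgf1, a fibroblast growth factor gene, had 50.6, 41.5, 61.2 and 57.8 counts without ligand, 220, 228, 309 and 328 with BMP2 and 14.2, 16 and 19.1 with BMP4. Its BMP5 libraries (25.1, 37 and 63.9) and BMP7 libraries (39, 34.6 and 55.8) overlapped the controls, 2 of 3 in each group lying below them, with changes of -0.41 (SE 0.29) and -0.30 (SE 0.29) that did not pass (adjusted p = 0.329 and 0.449). In all, 5 of the 8 secreted and matrix genes rose with BMP5, 5 with BMP7 and 6 of 7 tested with Tgfb. These counts and those of the other role groups stand beside 16.5%, 19.2% and 27.4% of all tested genes higher with the 3 ligands.

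**Figure D3:**
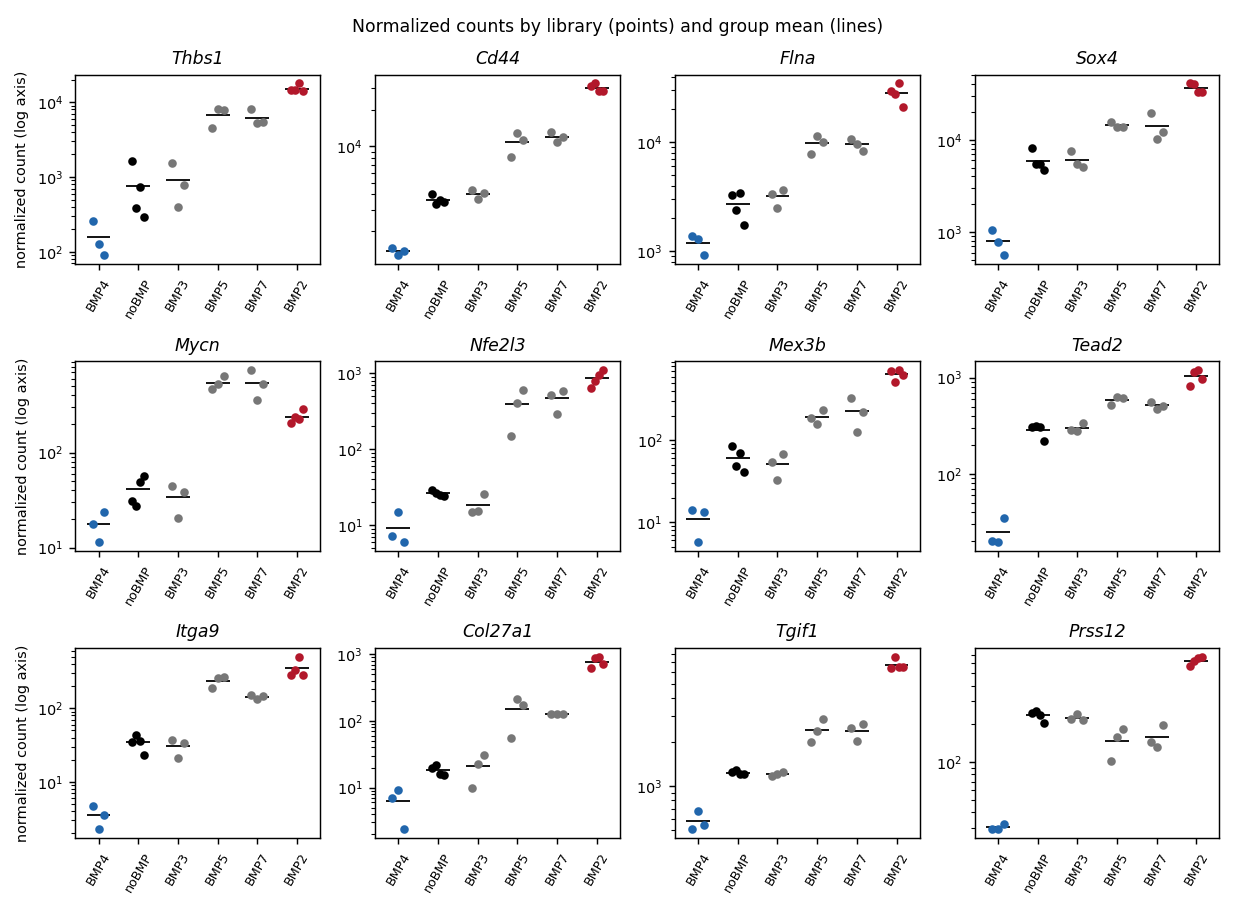
Normalized counts (y axis, log scale) of 12 of the 104 genes in each library of the BMP table, by group (x axis); points are libraries and lines group means, with BMP4 in blue, noBMP in black, BMP3, BMP5 and BMP7 in grey and BMP2 in red. BMP5 and BMP7 lie between the controls and BMP2 for most of these genes, above BMP2 for Mycn (means of 539 and 542 against 238) and below the controls for Prss12 (147 and 157 against 232).

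Surface receptors and adhesion molecules were the largest named group, with 20 genes, of which 17 rose with BMP5, 18 with BMP7 and 18 with Tgfb. Cd44 (ENSMUSG00000005087), a hyaluronan receptor and a Wnt target, is known to mark crypt cells. Untreated libraries had 4000, 3350, 3590 and 3460 normalized counts, BMP2 libraries 31500, 33100, 28400 and 28500 and BMP4 libraries 1460, 1260 and 1380. The BMP5 libraries had 8180, 12800 and 11300 and the BMP7 libraries 13000, 10800 and 11900, a rise of 1.56 (SE 0.12) and 1.72 (SE 0.12) (adjusted p = 1.32e-07 and 3.54e-08). The BMP2, BMP4, BMP5 and BMP7 libraries did not overlap the controls, and BMP5 and BMP7 left Cd44 below every BMP2 library. With Tgfb it went from 30.3, 36.6 and 35.7 TPM to 203, 190.1 and 209.5 TPM (log2 2.52 (SE 0.091), adjusted p = 7.61e-06).

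Ephb3, a receptor for ephrin-B ligands that positions cells along the crypt, had 1160, 1200, 1340 and 1390 counts without ligand, 4360, 4840, 3990 and 4550 with BMP2 and 418, 370 and 414 with BMP4. It rose by 0.68 (SE 0.11) with BMP5, 0.63 (SE 0.11) with BMP7 and 1.16 (SE 0.11) with Tgfb (adjusted p = 0.000116, 0.000167 and 0.000219). Cd44 and Ephb3 were the only genes of the set in a list of 18 crypt stem cell markers. Of these 18 markers, 15 were down with BMP4 and 2 up with BMP2 by the parts of the rule. Over the whole list 5 rose and 4 fell with BMP5, 5 rose and 8 fell with BMP7, and 6 rose and 12 fell with Tgfb, so genes of the list moved both ways.

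The integrin chains Itga5 and Itga9 pair with beta chains to bind fibronectin and other matrix proteins. Itga5 had 155, 165, 155 and 144 counts without ligand, 721, 946, 1190 and 1080 with BMP2 and 45, 71.9 and 86.2 with BMP4. Itga9 had 34.6, 43.1, 36.4 and 23.1, 285, 336, 500 and 285 and 4.74, 2.28 and 3.59, a BMP4 mean 9.698-fold below the controls. As 1 read was worth 1.14 to 1.20 in the BMP4 libraries, these BMP4 values are a few reads each and the ratio is imprecise. With BMP5 and BMP7 Itga9 had 187, 262 and 265 and 150, 135 and 145, so that every BMP5 library was above every BMP7 library. Both genes rose with BMP5 (1.10 (SE 0.21) and 2.77 (SE 0.26)), with BMP7 (1.26 (SE 0.21) and 2.06 (SE 0.26)) and with Tgfb (1.71 (SE 0.22) and 2.44 (SE 0.29)), at adjusted p between 6.17e-07 and 0.000845. In the list of integrins 12 of 16 tested genes rose with BMP5, 12 with BMP7 and 11 of 11 with Tgfb.

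The innate sensor gene Tlr2 lay just inside the BMP2 threshold of the rule. Its counts were 120, 89.6, 69.2 and 95.8 without ligand, 237, 234, 129 and 157 with BMP2 and 46.2, 31.9 and 28.7 with BMP4. BMP5 and BMP7 libraries had 356, 268 and 224 and 391, 255 and 242, with means above that of BMP2 and rises of 1.58 (SE 0.29) and 1.64 (SE 0.29) (adjusted p = 0.000481 and 0.000263). Tnfrsf1b, which encodes the second receptor for tumour necrosis factor, had 464 ± 14.5 counts without ligand, 1350 ± 181 with BMP2 and 148 ± 26.5 with BMP4 (SD, n = 4, 4 and 3), and rose by 0.93 (SE 0.16) with BMP5, 0.98 (SE 0.16) with BMP7 and 1.51 (SE 0.088) with Tgfb (adjusted p = 0.000347, 0.000149 and 3.46e-05). Adgrg1, an adhesion G protein-coupled receptor, was also higher with BMP5 (2917 ± 333; SD, n = 3) than with BMP2 (2345 ± 206; SD, n = 4) by its means, and rose against the controls by 1.59 (SE 0.13) with BMP5 (adjusted p = 1.55e-07).

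Vasn encodes vasorin, which binds Tgfb outside the cell, and Ldlrad4 encodes a membrane protein that sequesters Smad2 and Smad3. Vasn had 110, 50.6, 41.7 and 52 counts without ligand, 861, 439, 423 and 548 with BMP2 and 40.3, 16 and 16.8 with BMP4, and replicate 2 was the highest in each group. Ldlrad4 had 74.6, 58.1, 73.6 and 42.9, 657, 691, 656 and 642 and 28.4, 18.3 and 16.8, with 231, 350 and 338 for BMP5 and 377, 273 and 323 for BMP7. Both rose with BMP5 (1.98 (SE 0.40) and 2.29 (SE 0.20)), BMP7 (2.02 (SE 0.40) and 2.38 (SE 0.20)) and Tgfb (2.22 (SE 0.13) and 2.83 (SE 0.12)), at adjusted p between 1.39e-07 and 0.00119. Tgif1, a nuclear corepressor of Smad proteins, had 1250, 1290, 1200 and 1210 counts without ligand, 6450, 7640, 6490 and 6520 with BMP2 and 508, 672 and 539 with BMP4, and rose by 0.95 (SE 0.12) with BMP5, 0.94 (SE 0.12) with BMP7 and 1.37 (SE 0.086) with Tgfb (adjusted p = 1.38e-05, 1.02e-05 and 4.55e-05).

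Thbs1, Itga5 and Tgif1 were the genes of the set in a list of 26 Tgfb matrix and feedback targets. Of the 20 list genes at a mean of at least 50 counts, 16 were up with BMP2, 7 up with BMP4 and 3 down with BMP4 by the parts of the rule. The limma tests gave 17 higher and 1 lower of 22 with BMP5, the same numbers with BMP7, and 17 higher and 1 lower of 18 with Tgfb. A list of 17 BMP pathway targets held none of the 104 genes, where 0.877% of all genes at that mean are in the set. Of its 8 genes at that mean, 6 were up with BMP2 and 6 up with BMP4.

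Sema7a gave no call, and single libraries decided the calls of Notch4. Sema7a, a membrane-anchored semaphorin, had 1040, 1750, 1770 and 1590 counts without ligand, 3690, 6910, 6600 and 6190 with BMP2 and 257, 542 and 420 with BMP4. Its BMP5 libraries had 880, 1960 and 2370 and its BMP7 libraries 829, 1530 and 2190, on either side of the controls, with replicate 2 the lowest in each of these groups. The changes of 0.09 (SE 0.36) and -0.10 (SE 0.36) did not pass (adjusted p = 0.887 and 0.86), nor did 0.28 (SE 0.13) with Tgfb (adjusted p = 0.113; 0.0399 without Tgfb replicate 2). Notch4, a Notch receptor best known from endothelium, had 45.3, 53.9, 55.9 and 59.5 counts without ligand and 70.9, 133 and 160 and 61.7, 111 and 139 with BMP5 and BMP7. It rose by 1.09 (SE 0.30) and 0.87 (SE 0.30) (adjusted p = 0.0122 and 0.035). The adjusted p with BMP5 was 0.0638 without BMP5 replicate 3 and 0.0917 without replicate 6, and with BMP7 it was 0.0991 without BMP7 replicate 3, 0.188 without replicate 6, and 0.0794, 0.0614 and 0.0533 without untreated replicates 2, 3 and 4. The Tgfb change of 1.35 (SE 0.55) did not pass (adjusted p = 0.0782), with control TPM of 0.485, 4.48 and 0.665, and it passed without control replicate 2 (1.95, adjusted p = 0.00636).

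Cytoskeletal genes numbered 15, of which 12 rose with BMP5, 11 with BMP7 and 12 of 13 tested with Tgfb. Flna (ENSMUSG00000031328) encodes filamin A, which crosslinks actin and anchors it to integrins. It had 3270, 2410, 3420 and 1760 normalized counts without ligand, 29600, 28000, 34900 and 21300 with BMP2 and 1390, 1290 and 918 with BMP4. The BMP5 and BMP7 libraries had 7810, 11500 and 9980 and 10800, 9710 and 8360, all above the controls and below BMP2. The rises were 1.88 (SE 0.22) with BMP5 and 1.87 (SE 0.22) with BMP7 (adjusted p = 7.12e-06 and 4.93e-06). Tgfb raised Flna from 13.4, 12.7 and 12.4 to 133, 92.3 and 127 TPM (log2 3.08 (SE 0.14), adjusted p = 1.68e-05). In the list of 28 actin and contractile genes, Flna was the 1 gene of the set. That list had 23 of 24 genes up with BMP2, 7 up with BMP4 and 2 down with BMP4 by the parts of the rule.

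Enah, an actin-polymerising protein of the Ena/VASP family, had 25.8, 32.4, 30.2 and 20.6 counts without ligand, 578, 742, 588 and 335 with BMP2 and 14.2, 9.13 and 15.6 with BMP4. Its BMP2 mean was 20.6-fold and its BMP4 mean 2.100-fold away from the controls, so it combined a large BMP2 difference with a BMP4 value at the edge of the rule. Marcksl1, a membrane protein that binds actin and calmodulin, had 1390, 1230, 1240 and 1290, 16400, 16800, 16100 and 17600 and 367, 287 and 797. Enah and Marcksl1 rose by 2.16 (SE 0.27) and 1.61 (SE 0.26) with BMP5, by 1.88 (SE 0.27) and 1.74 (SE 0.26) with BMP7 and by 1.27 (SE 0.32) and 2.85 (SE 0.16) with Tgfb (adjusted p at most 0.0143). Camsap1, which caps the minus ends of microtubules, had 781 counts in the controls and 892 and 927 with BMP5 and BMP7 by the means, and its changes did not pass with any of the 3 ligands.

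Transcription factors and cofactors numbered 14, of which 9 rose with BMP5, 8 with BMP7 and 10 of 13 tested with Tgfb. Sox4 (ENSMUSG00000076431), a factor of progenitor cells that Tgfb induces in many epithelia, had 8130, 5410, 5400 and 4710 normalized counts without ligand, 41100, 40700, 32600 and 32800 with BMP2 and 1060, 773 and 559 with BMP4. With BMP5 and BMP7 it had 15600, 13800 and 13600 and 19600, 10200 and 12000, all above the controls. The log2 rises were 1.31 (SE 0.23) and 1.21 (SE 0.23) (adjusted p = 0.000377 and 0.000558), and with Tgfb Sox4 went from 59.3, 66.1 and 59.6 to 195, 180.4 and 189.7 TPM (1.60 (SE 0.072), adjusted p = 1.51e-05).

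Nfe2l3 and Mycn had some of the largest rises under all 3 other ligands. Nfe2l3 (ENSMUSG00000029832), a basic leucine zipper factor related to Nrf2, had 29.3, 26.6, 24.8 and 24 counts without ligand, 630, 785, 932 and 1100 with BMP2 and 7.11, 14.8 and 5.98 with BMP4. It had 149, 408 and 605 with BMP5 and 515, 291 and 587 with BMP7, log2 rises of 3.62 (SE 0.38) and 4.04 (SE 0.38) (adjusted p = 2.01e-06 and 4.05e-07). Tgfb raised it from 0.593, 0.408 and 0.379 to 27.3, 24.4 and 31.3 TPM (4.29 (SE 0.12), adjusted p = 3.71e-06). Mycn (ENSMUSG00000037169), the N-Myc gene, differed in that BMP5 and BMP7 exceeded BMP2. The counts were 31.1, 27.4, 48.8 and 57 without ligand, 17.8, 11.4 and 23.9 with BMP4, 203, 238, 225 and 287 with BMP2, 461, 522 and 634 with BMP5 and 738, 361 and 527 with BMP7. Each BMP5 and BMP7 library was above each BMP2 library. The rises against the controls were 3.73 (SE 0.31) and 3.69 (SE 0.31) (adjusted p = 1.68e-07 and 1.12e-07), and with Tgfb Mycn went from 0.895, 0.737 and 1.19 to 19.98, 18.7 and 21.6 TPM (3.45 (SE 0.12), adjusted p = 6.19e-06).

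Mycl, another Myc family gene of the set, had 1010, 985, 1030 and 1120 counts without ligand, 1950, 3180, 2190 and 2450 with BMP2 and 430, 349 and 518 with BMP4, and 1280, 1350 and 1370 and 1340, 1200 and 1430 with BMP5 and BMP7. Although these did not overlap the controls, the changes of 0.36 (SE 0.14) and 0.35 (SE 0.14) did not pass (adjusted p = 0.0609 and 0.0612), nor did 0.18 (SE 0.11) with Tgfb (adjusted p = 0.218). The BMP5 change passed with the replicate number as a block (adjusted p = 0.0487), with quantile normalization (0.0264) and by DESeq2 on recovered reads (0.0360). The BMP7 change passed by edgeR (0.0443) and DESeq2 (0.0414) on recovered reads. Myc itself was outside the set, with log2 ratios to the controls of -0.35 for BMP2 and -1.53 for BMP4.

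Tead1 and Tead2 encode the DNA-binding partners of the Hippo effectors Yap and Taz. Tead2 had 307, 313, 309 and 219 counts without ligand, 823, 1140, 1200 and 957 with BMP2 and 20.1, 19.4 and 34.7 with BMP4, the last 11.6-fold below the controls. BMP5 and BMP7 libraries had 513, 624 and 610 and 562, 471 and 506, all above the controls (log2 1.03 (SE 0.19) and 0.85 (SE 0.19), adjusted p = 0.00043 and 0.00177). In the Tgfb experiment the change of 0.81 (SE 0.31) did not pass (adjusted p = 0.0656), with TPM of 7.85, 19.4 and 16.9 in the controls and 23.4, 23.3 and 28.6 with Tgfb. It passed without control replicate 1 (0.45, adjusted p = 0.0330) or replicate 2 (1.05, adjusted p = 0.0381). Tead1 had 2015 ± 333 counts without ligand, 4855 ± 822 with BMP2 and 945 ± 26.4 with BMP4 (SD, n = 4, 4 and 3), and rose by 0.54 (SE 0.14), 0.61 (SE 0.14) and 1.08 (SE 0.10) with BMP5, BMP7 and Tgfb (adjusted p = 0.0063, 0.00215 and 0.000258). The related genes Tead3 and Tead4 were outside the set, with log2 ratios of 0.70 and 2.94 for BMP2 and 0.17 and 0.74 for BMP4. A list of 22 Yap target genes held none of the 104, where 0.877% of all genes at a mean of at least 50 counts are in the set. Of its 18 genes at that mean, 14 were up with BMP2, 6 up with BMP4 and 3 down with BMP4 by the parts of the rule. The limma tests gave 13 higher and 0 lower of 18 with BMP5, 13 and 1 of 18 with BMP7 and 13 and 1 of 17 with Tgfb.

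Zfp618, a zinc finger gene, had 156, 173, 184 and 175 counts without ligand, 813, 942, 800 and 935 with BMP2 and 22.5, 19.4 and 35.9 with BMP4. BMP5 and BMP7 brought it to 712, 786 and 897 and 1010, 652 and 766, overlapping BMP2 (log2 2.20 (SE 0.17) and 2.21 (SE 0.17), adjusted p = 1.15e-07 and 6e-08). Tgfb raised it from 0.758, 0.892 and 0.705 to 35.6, 37.3 and 48.2 TPM (4.52 (SE 0.13), adjusted p = 3.73e-06). On the log2(TPM + 1) scale, though not by plain ratios, this was the second largest Tgfb change of the set. Tcf3, which encodes the E-proteins E12 and E47, had changes of 0.20 (SE 0.12), 0.22 (SE 0.12) and 0.09 (SE 0.062) with BMP5, BMP7 and Tgfb, none of which passed (adjusted p = 0.242, 0.169 and 0.256).

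Of the Mex3 family of RNA-binding ubiquitin ligases, 3 genes were in the set. Mex3a (ENSMUSG00000074480), a marker of slowly cycling crypt progenitors, had the lowest BMP4 level relative to the controls of all 104 genes on the log2(mean + 1) scale of the rule (-4.61). Without the added 1, Pxdn, which was at or under 3 reads in every BMP4 library, would come first. Mex3a had 289, 358, 510 and 425 counts without ligand, 19, 16 and 10.8 with BMP4, a 25.9-fold lower mean, and 598, 864, 928 and 820 with BMP2. The BMP5 libraries had 492, 687 and 870 and the BMP7 libraries 516, 498 and 662, each with a library inside the control range. Mex3a rose by 0.78 (SE 0.24) with BMP5 (adjusted p = 0.023), a call lost without BMP5 replicate 3 (0.0768) or 6 (0.146) or untreated replicate 2 (0.0720) or 3 (0.0546). The BMP7 change of 0.52 (SE 0.24) did not pass (adjusted p = 0.111), and passed with the replicate number as a block (0.63, adjusted p = 0.0174). With Tgfb the rise was 0.92 (SE 0.15) (adjusted p = 0.00221).

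Mex3b, a close relative, had the highest BMP2 ratio of the family, with 84.4, 48.1, 69.2 and 40.5 counts without ligand, 707, 517, 722 and 620 with BMP2 and 14.2, 5.7 and 13.2 with BMP4. Mex3d had 370, 356, 292 and 349, 1640, 1570, 1410 and 1560 and 104, 85.6 and 115. Mex3b and Mex3d rose with BMP5 (1.70 (SE 0.34) and 0.83 (SE 0.13)), BMP7 (1.84 (SE 0.34) and 0.85 (SE 0.13)) and Tgfb (1.83 (SE 0.18) and 0.95 (SE 0.15)), at adjusted p between 5.87e-05 and 0.00205. Mex3c, the fourth gene of the family, was outside the set, with log2 ratios of 1.61 for BMP2 and 0.18 for BMP4.

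Intracellular signalling genes numbered 16, of which 12 rose with BMP5, 13 with BMP7 and 11 of 12 tested with Tgfb. Arl4c (ENSMUSG00000049866), a small GTPase of cell migration and epithelial morphogenesis, had 178, 158, 192 and 221 counts without ligand, 1560, 2640, 1870 and 2230 with BMP2 and 47.4, 20.5 and 34.7 with BMP4. It had 1170, 1840 and 2060 with BMP5 and 2070, 1320 and 1890 with BMP7, overlapping the BMP2 libraries. The rises were 3.14 (SE 0.25), 3.21 (SE 0.25) and, from 1.499, 1.497 and 1.21 to 39.3, 31.2 and 35.7 TPM with Tgfb, 3.92 (SE 0.11) (adjusted p = 1.45e-07, 6e-08 and 3.65e-06). Phlda3, a p53 target that inhibits Akt, had 108 ± 15.3 counts without ligand, 287 ± 15.3 with BMP2 and 50.5 ± 3.91 with BMP4 (SD, n = 4, 4 and 3), and rose by 0.91 (SE 0.18), 1.09 (SE 0.18) and 1.91 (SE 0.11) (adjusted p = 0.00113, 0.000171 and 3.01e-05).

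Enzymes and trafficking genes numbered 7, of which 6 rose with BMP5, 6 with BMP7 and 5 of 6 tested with Tgfb. St6gal1, a sialyltransferase of the Golgi, had 40, 46.5, 22.2 and 12.4 counts without ligand, 294, 482, 276 and 124 with BMP2 and 4.74, 2.28 and 2.39 with BMP4, the last a few reads each. It rose by 1.48 (SE 0.48) with BMP5 and 1.30 (SE 0.48) with BMP7 (adjusted p = 0.0295 and 0.0457), with 76.2, 115 and 51.1 and 94.4, 77.4 and 42.3 counts. The BMP5 call was lost without BMP5 replicate 2 (adjusted p = 0.0567) or 3 (0.151) or untreated replicate 4 (0.0655) or 6 (0.1003). The BMP7 call was lost without BMP7 replicate 2 (0.178) or 3 (0.111) or untreated replicate 4 (0.0923) or 6 (0.145), and with totals made equal across samples (0.0597).

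No role was assigned to 21 genes, of which 19 rose with BMP5, 15 with BMP7 and 18 of 20 tested with Tgfb. D630003M21Rik had the largest fitted rises with BMP5 and BMP7 of the 104 genes. It had 4.44, 2.49, 8.87 and 17.3 counts without ligand, 124, 257, 221 and 143 with BMP2 and 0, 1.14 and 2.39 with BMP4, at or under 3 reads in each BMP4 library, so its BMP2 mean was at least 52.9-fold above BMP4. With BMP5 and BMP7 it had 42.2, 223 and 304 and 135, 106 and 223 (log2 4.23 (SE 0.63) and 4.28 (SE 0.63), adjusted p = 7.22e-05 and 4.48e-05), and the Tgfb rise was 3.12 (SE 0.13) (adjusted p = 1.13e-05). By plain means these rises were 22.9-fold, 18.7-fold and 129-fold, the last from 0.0637 TPM in the controls. Eva1a, a membrane protein of autophagy and apoptosis, and Fam89a were also at or under 3 reads in every BMP4 library, with BMP2 means at least 41.3-fold and 15.0-fold above that floor. Eva1a had 13.3, 14.9, 6.21 and 12.4 counts without ligand and 145, 157, 98.8 and 181 with BMP2, and Fam89a had 20.4, 11.6, 20.4 and 19.8 and 40.9, 47.3, 67.1 and 55.7. Fam89a reached 109, 129 and 176 with BMP5 and 144, 88.4 and 134 with BMP7, each library above every BMP2 library. The untreated libraries of Fam89a were at 11.6 to 20.4 and its BMP2 libraries at 40.9 to 67.1. Fam89a thus reached the mean of at least 50 only through its BMP5 and BMP7 libraries. Its fitted BMP7 rise of 2.69 (SE 0.32) is therefore a description, and so is that of 2.97 (SE 0.41) for Eva1a, whose BMP5 and BMP7 libraries also entered that mean. With Tgfb, which entered no part of the rule, Eva1a rose by 2.15 (SE 0.14) and Fam89a by 2.81 (SE 0.11) (adjusted p = 5.53e-05 and 9.09e-06). Ctxn1, a small membrane protein of neurons, rose by 1.55 (SE 0.21), 1.33 (SE 0.21) and 2.11 (SE 0.15) with BMP5, BMP7 and Tgfb (adjusted p = 2.56e-05, 8.53e-05 and 8.36e-05).

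**Figure D4:**
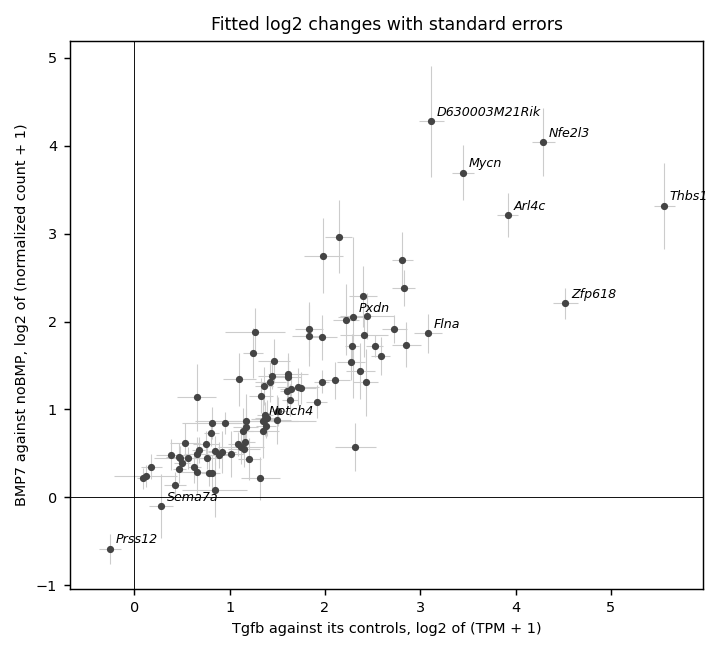
Fitted log2 change with Tgfb against its controls (x axis, TPM + 1) and with BMP7 against noBMP (y axis, normalized count + 1) for the 94 genes tested in both experiments; each point is a gene and the bars are standard errors. The 2 comparisons share no sample, 68 genes rose in both, and Prss12 is the 1 point left of zero on the Tgfb axis, at -0.26.

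Protein-coding genes made up 101 of the 104, and 3 were long noncoding RNAs, among them Gm37233 and 5830444B04Rik at the edges of the rule. Values at those edges were close. Tlr2, 5830444B04Rik and Camsap1 were just inside the BMP2 threshold (log2 of 1.01 each), and Gm49377, Gpc2 and Sun2 just outside it (0.998, 0.997 and 0.989). Gm37233 and Enah were just inside the BMP4 threshold (-1.01 and -1.02), and Epn2, Notch2 and Marcks just outside (-0.996, -0.995 and -0.995). Over the 104 genes the BMP2 log2 ratio ran from 1.01 to 5.34 with a median of 1.89, and the BMP4 ratio from -4.61 to -1.01 with a median of -1.41. Of 41 functional gene lists, 9 held at least 1 gene of the set, and 92 of the 104 genes were in no list. The lists have 8 to 28 genes each. The share of all genes found in them was not counted, so these numbers do not set the 104 genes apart.

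Promoters are shown for genes with some of the largest rises under the other ligands (Nfe2l3, Arl4c, Mycn), for the actin crosslinker Flna and, as the gene that fell with BMP5 and BMP7, for Prss12. Each is the 250 bases before the annotated start from RefSeq on GRCm38.p6, written 5′ to 3′ on the gene's strand. Capitals mark GC boxes (GGGCGG, or CCGCCC where the box is on the other strand), which Sp1 and Klf factors are known to bind. They lie at chr6:51432419-51432668 (plus strand), chr1:88702192-88702441 (minus), chr12:12941837-12942086 (minus), chrX:74246535-74246784 (minus) and chr3:123446663-123446912 (plus).
Nfe2l3: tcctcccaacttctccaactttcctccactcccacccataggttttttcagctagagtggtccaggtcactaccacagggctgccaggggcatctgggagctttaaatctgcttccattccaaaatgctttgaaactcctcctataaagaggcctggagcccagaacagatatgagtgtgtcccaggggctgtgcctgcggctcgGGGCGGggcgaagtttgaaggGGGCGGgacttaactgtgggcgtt
Arl4c: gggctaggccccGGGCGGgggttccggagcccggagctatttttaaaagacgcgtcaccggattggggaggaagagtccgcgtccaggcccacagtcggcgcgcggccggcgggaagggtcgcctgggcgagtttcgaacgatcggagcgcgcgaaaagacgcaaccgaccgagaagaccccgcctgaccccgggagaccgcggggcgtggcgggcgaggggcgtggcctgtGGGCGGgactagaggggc
Mycn: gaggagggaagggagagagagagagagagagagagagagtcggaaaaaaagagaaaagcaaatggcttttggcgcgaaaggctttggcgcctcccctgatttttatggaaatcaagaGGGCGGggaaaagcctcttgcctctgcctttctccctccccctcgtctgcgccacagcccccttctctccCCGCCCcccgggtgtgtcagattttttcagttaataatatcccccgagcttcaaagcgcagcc
Flna: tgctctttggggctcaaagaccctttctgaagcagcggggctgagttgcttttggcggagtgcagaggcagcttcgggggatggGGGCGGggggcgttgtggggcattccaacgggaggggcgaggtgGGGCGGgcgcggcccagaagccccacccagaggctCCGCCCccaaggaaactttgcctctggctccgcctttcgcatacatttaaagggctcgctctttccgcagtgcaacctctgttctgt
Prss12: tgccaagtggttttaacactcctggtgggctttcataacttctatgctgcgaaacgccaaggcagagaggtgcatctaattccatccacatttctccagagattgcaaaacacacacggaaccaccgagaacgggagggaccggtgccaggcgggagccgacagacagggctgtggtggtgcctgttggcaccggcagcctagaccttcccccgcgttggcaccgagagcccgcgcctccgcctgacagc
The first 3 promoters held 2 GC boxes each, that of Flna 3 and that of Prss12 none.

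Over the set, 86 of the 104 genes matched this table, with 114 promoters. A GC box was present in 70.2% of them, compared with 57.8% of the promoters of genes at a mean of at least 50 counts and 32.7% of all promoters in the table. It was present in 61.7% of promoters of the other genes up with BMP2 and in 38.8% of those of genes up with BMP4 and down with BMP2. Median GC content was 61%, 59.6%, 52.4%, 60.8% and 53.6% in the same order. The Smad box CAGAC was in 43.0% of the set's promoters, 40.3% of those of genes at a mean of at least 50 counts and 42.2% of all, and the GC-rich Smad element GGCGCC, in the same order, in 13.2%, 16.7% and 9.59%. The AP-1 site TGANTCA was in 5.26%, 4.63% and 6.75%, the TEAD site GGAATG in 14.9%, 10.7% and 12.6%, the TCF site CTTTGNT in 8.77%, 12.3% and 15.98%, the CDX site TTTATNG in 4.39%, 6.13% and 9.81%, and the HNF4 site CAAAGTCCA in 0.877%, 0.406% and 0.384%. In the set the AP-1, CDX and HNF4 shares are 6, 5 and 1 of the 114 promoters, and promoters of the same gene were counted separately. For GGCGCC and TGANTCA the set lay between the other shares. Motifs were searched on both strands as these exact letters, and matches of different motifs may share bases. A match is a description of letters and was not tested as a site.

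In mesenchymal cells, for which there was 1 sample of each kind and no test, the genes reached 10 TPM about as often as other genes expressed in the organoids. At least 10 TPM were found for 65 of the 104 genes in the fresh cells, for 61 in the immortalised and sorted cells and for 56 in both (62.5%, 58.7% and 53.8%). Of all genes at a mean of at least 50 counts in the BMP table, 64.5%, 62.9% and 59.7% did so. Flna had 1319 and 1387 TPM and Thbs1 235 and 1121 TPM in fresh and immortalised cells. Under 1 TPM were 11 genes in both, among them Tnf and Sema7a. Sox4 had 81.2 and 67.5 TPM there and 61.7 ± 3.88 TPM in untreated organoids of the Tgfb experiment (SD, n = 3), in tables that were scaled separately.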

How the data were processed

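Expression was measured by mRNA sequencing in 28 samples, grouped by their labels, with 0 columns of per-sample values left unmapped. In the BMP table (20 samples) the deposited values are a signal, namely gene counts over a sample-wise size factor, given to 3 significant digits. This was read from the values: 100% of 180721 values at or under 20 reads were whole multiples of 1 read within 0.1 read, and 1 read was worth 0.826 to 1.28. The counts too large for that precision, 21.0% of nonzero entries, are rounded. In the other 2 tables the deposited values are TPM, since each column sums to 1000000, so depth is unknown there. The submitters' processing notes name Trim Galore, Salmon, DESeq2 and GRCm39 without their roles, and no coordinate on that build was used.

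Tests were two-sided limma 3.58.1 fits (R 4.3.3) on log2(value + 1) with an intensity trend, over genes at a mean of at least 10 normalized counts (14746 genes, 1 fit over all 6 BMP groups) or 1 TPM (12959 genes), with Benjamini-Hochberg adjustment. A log2 change on this scale understates the change of low genes. The design named edgeR for raw counts, and neither unit is one. edgeR 4.0.16 and DESeq2 1.42.0 were run on the recovered reads as alternatives, beside other pseudocounts, filters and scalings, a replicate block, and leaving out each replicate. The scripts were tested on simulated data. Floors of 3 reads cover counting error only.

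Replicate numbers come from the sample titles. In the BMP table the deviations of same-numbered samples correlated in every pair tested (0.158 to 0.262 for BMP5 and 0.236 to 0.294 for BMP7 with untreated samples), so these numbers pair the samples. The main fits left this pairing out, and the fits with a replicate block are an alternative. In the Tgfb experiment the pairs gave 0.00405 to 0.0696.

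The set, the gene lists and the role groups were chosen with earlier results of these data known. Genes were named by a rule: the 10 with the largest BMP2 to BMP4 difference, the largest changes under Tgfb (5 each way), BMP7 and BMP5 (3 each way), up to 3 per gene list, and those at the thresholds; 1 gene that the rule names is not reported here. Chosen after their values were seen were Sox4, Tead1, Tead2, Mex3a, Mex3b, Mex3d, Mycl, Tnf, Fgf1, Vasn, Ldlrad4, Marcksl1, Sema7a, Tcf3, Fam89a and Adgrg1, and the relatives outside the set.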

Additional observations from a re-analysis of the deposited data

Results flagged for a closer look

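In groups of 4 samples, 6 of 80 groups checked (40 genes, untreated and BMP2) had a library whose gap to its nearest neighbour exceeded Dixon's critical value, and chance alone flags about 1 in 20 such groups. Among untreated libraries, Pxdn stood at 145 normalized counts in replicate 4 (4.13 to 13.3 in the others) and Vasn at 110 in replicate 2 (41.7 to 52). Untreated replicate 6 was low for Tead2, at 219 (307 to 313 in the others). Fam89a had a single low untreated library at 11.6 (19.8 to 20.4 in the others). Among BMP2 libraries, Tgif1 had 7640 in replicate 3 (6450 to 6520 in the others) and Thbs1 17900 in replicate 4 (14000 to 14400).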

How the results depend on the processing

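The number of genes in the set depended on the rule: it was 32 with a log2 fold of at least 1.5 each way and 83 with a pseudocount of 10. It was 93 with quantile normalization, 127 at a mean of at least 10, and 94 to 120 when single replicates were left out. Of the 93 genes with quantile normalization only 71 were among the 104. The 32 and the 83 lay wholly within the 104, and the 127 held all of them. The calls among the 104 genes (either direction) numbered 84 with BMP5, 79 with BMP7 and 83 with Tgfb. Fits without single replicates gave 69 to 84, 67 to 76 and 77 to 84. The other alternatives gave 78 to 95, 72 to 89 and 35 to 87, the 35 being of 40 genes left at a mean of at least 10 TPM. BMP3 and BMP7 against BMP5 gave 0 in every alternative run. With the replicate number as a block, in which same-numbered samples are paired, 95 genes passed with BMP5, 89 with BMP7 and 85 with Tgfb. It ended no call and added 11, 10 and 2, one of the last being Notch4 (1.35, adjusted p = 0.0208), in an experiment where same-numbered samples share only a number. Over 119 single-gene results and 1731 alternatives, 1685 kept direction and call, 25 lost the call, 17 gained it and 4 changed sign. All 4 were Sema7a with BMP5 or BMP7, which passed in none of the alternatives. Leaving out single replicates gave it -0.20 to 0.52 with BMP5 (-0.06 without BMP5 replicate 3, -0.20 without replicate 6, -0.09 without untreated replicate 2) and -0.42 to 0.28 with BMP7 (0.28 without BMP7 replicate 2). The cause was not tested. Rounding to 3 digits limits high counts, and TPM of the Tgfb experiment carry no depth, so 10 genes at a mean under 1 TPM were not tested there.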
